A study of Fukomys damarensis and Heterocephalus glaber and Cavia porcellus with 28 samples.

Results

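The cytosolic ribosomal protein genes are described here in heart and liver of 4 rodent species. They were taken from the deposited tables by symbol: every row whose mouse symbol begins with Rpl, Rps or Rplp followed by a number, without the ribosomal S6 kinase genes and pseudogenes, together with Rpsa. This gave 76 of 13928 rows. Of these, 38 encode proteins of the large subunit, 28 proteins of the small subunit and 3 the P stalk, and 6 are paralogs of ribosomal protein genes (Rpl3l, Rpl7l1, Rpl22l1, Rpl36al, Rpl39l and Rps27l). The remaining row, Rps19bp1, encodes a binding partner of a ribosomal protein and is no ribosomal protein itself. It meets the symbol rule, so the counts, medians and read shares below include it. Rpl7a, Rpl10, Rpl13a, Rpl36, Rpl39, Rps2, Rps10 and Rps28 were not analysed here.

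RNA of the naked mole-rat and the Damaraland mole-rat, both long-lived subterranean rodents, was compared with RNA of the guinea pig and the mouse as outgroups, in a study of how gene expression evolved in mole-rats. Total RNA of flash-frozen tissue was sequenced after ribosomal RNA had been depleted, so the reads come from messenger and other RNA and not from the ribosomal RNA that these proteins bind. No treatment was applied, and the labels give no strain. Naked mole-rats gave 3 hearts and 4 livers, Damaraland mole-rats 5 of each, guinea pigs 3 of each and mice 3 hearts and 2 livers. The naked mole-rats were 13 to 17 months old, the Damaraland mole-rats 36 to 48 months, the guinea pigs 2.3 months and the mice 2 months, so species and age cannot be told apart. All animals were male except 1 female Damaraland mole-rat that gave a liver. Of 18 animals, 10 gave both tissues, and for 1 Damaraland mole-rat the labels give a different age in each tissue.

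Ribosomal proteins coat and fold the ribosomal RNA of the small subunit, which decodes messenger RNA, and of the large subunit, which joins amino acids and releases the chain through an exit tunnel. A ribosome holds a single copy of nearly every such protein, the exception being the acidic proteins of the P stalk, which recruits elongation factors and is present in several copies. Messenger RNAs of ribosomal proteins share a pyrimidine tract at their start through which growth signals set their translation together, and many of these genes have processed pseudogenes of near-identical sequence. Liver exports much of the protein it makes, while cardiac muscle also uses the paralog Rpl3l in place of Rpl3. A level is given below either as scaled reads, which are the reads of a gene divided by the size factor of the library, or as the deposited value, which is on a log2-like scale. Neither is corrected for gene length, so levels are compared between species within a gene and not between genes, apart from the read shares of paralog pairs. A length that differs between species for the same gene is not corrected either, and its part in the differences below was not tested.

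Recovered reads per library ran from 4089633 in naked mole-rat heart replicate 3 to 26985779 in the hearts and between 11220505 and 21467939 in the livers, and whole read numbers were recovered for 100% of values in all 28 libraries. Mitochondrially encoded genes took 0.00339% to 0.0279% of reads in the Damaraland mole-rat libraries and 2.88% to 26.9% in those of the other species. The summed level of 8 cardiomyocyte marker genes was at least 781158 scaled reads in every heart library, and that of 6 hepatocyte marker genes was at least 890357 in every liver library. The hepatocyte markers also summed to 10988 to 31198 scaled reads in naked mole-rat heart, against 332 to 5182 in the other hearts, and none of the 6 was at 0 in all naked mole-rat hearts. In liver the 4 cholangiocyte markers summed to 2138 to 2980 scaled reads in the naked mole-rat and to 119 to 2048 in the other species. Of these 4 only Epcam was higher in the naked mole-rat than in each other species by the test described below. Krt19 and Krt7 were so in the guinea pig and Spp1 in the mouse. The median difference of the 4 between the naked mole-rat and the other species was -0.17, so the sum does not describe them as a set. The part of these cells in the results below was not tested, and fewer cells of a type cannot be told apart from less RNA per cell in tissue RNA.

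As a group the ribosomal protein genes stood highest in naked mole-rat liver. They took 1.86% ± 0.27 (SD, n = 4) of all reads there, against 1.43% ± 0.12 (n = 5) in the Damaraland mole-rat, 1.23% ± 0.22 (n = 3) in the guinea pig and 1.31% ± 0.15 (n = 2) in the mouse. Single naked mole-rat livers held 1.89%, 2.14%, 1.49% and 1.90%, the lowest of which fell below the highest Damaraland mole-rat liver at 1.56%. Without the mitochondrially encoded reads the lowest naked mole-rat liver was at 1.60%, above every liver of the other species. In heart the order was another: the Damaraland mole-rat had 1.73% ± 0.24 (n = 5), the guinea pig 1.52% ± 0.17 (n = 3), the mouse 1.11% ± 0.11 (n = 3) and the naked mole-rat 1.11% ± 0.15 (n = 3). The heart shares moved with the mitochondrially encoded reads. With those reads left out of the total, the naked mole-rat and the mouse rose to 1.46% each, the guinea pig to 1.70% and the Damaraland mole-rat stayed at 1.73%, and the ranges of all 4 species overlapped. These shares are a description of the libraries and were not tested.

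**Figure D1:**
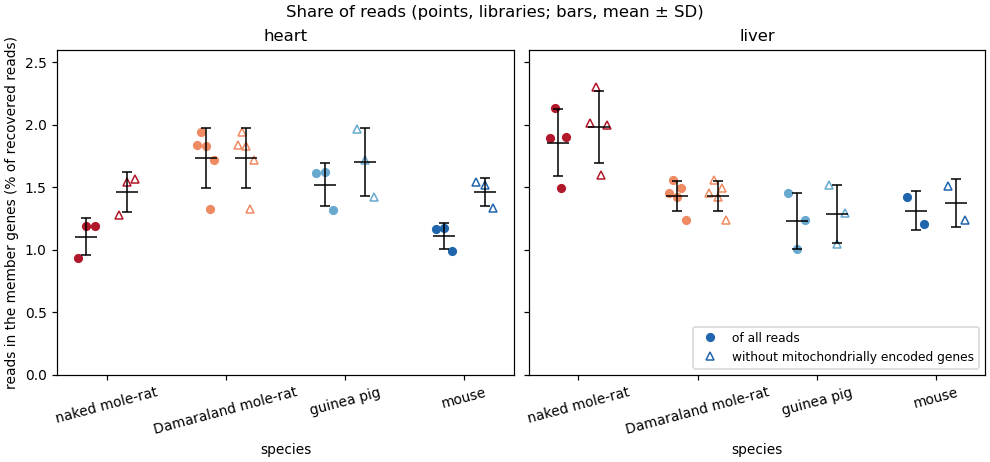
Reads in the 76 genes as a percentage of all recovered reads (filled circles) and of reads without mitochondrially encoded genes (open triangles), for each heart library on the left and liver library on the right, with the mean ± SD of each species as black bars. In liver 3 of 4 naked mole-rat circles lie above every circle of the other species, and all 4 triangles above theirs, while in heart the ranges of the open triangles overlap between species.

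Gene by gene, 75 of the 76 members had enough reads to be tested in each tissue, the exception being Rpl39l. In liver 57 of these 75 members, or 76.0%, had their highest species mean in the naked mole-rat, against 25.1% of all 10887 genes tested. The naked mole-rat minus the mean of the other species had a median of 0.86 over the members and of -0.02 over all genes. This difference was above 0 for 66 of 75 members, against 48.9% of all genes tested. Large subunit genes (median 0.97, 32 of 38 above 0) and small subunit genes (median 0.81, 27 of 28 above 0) shared this direction, as did all 3 P stalk genes. Every naked mole-rat library lay above every library of the other species for 21 members, or 28.0%, against 12.1% of all genes tested.

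The naked mole-rat livers differed among themselves in this shift. Relative to each gene's mean over the 14 livers, the median over the members was 0.57, 0.89, 0.23 and 0.51 in naked mole-rat replicates 1 to 4. It lay between -0.34 and 0.11 in the Damaraland mole-rat, between -0.75 and 0.05 in the guinea pig and at -0.18 and -0.46 in the 2 mice. Guinea pig liver replicate 2, at -0.75, was the lowest of all 14 libraries, and all 4 naked mole-rat livers were above the other 10. The members also varied more than most genes among animals of a species: the median SD within a species was 0.30 for members and 0.22 for all genes in liver, and 0.29 and 0.19 in heart.

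In heart no such shared rise was seen in the naked mole-rat. The median difference from the other species was -0.26 for the naked mole-rat, 0.29 for the Damaraland mole-rat, -0.02 for the guinea pig and 0.11 for the mouse, with medians of all genes between -0.04 and -0.01. The Damaraland mole-rat had the highest species mean for 32 of 75 members (42.7%, against 23.2% of all genes) and the naked mole-rat the lowest for 26 (34.7%, against 25.4%). Damaraland mole-rat hearts were uneven, with member medians of 0.46 in replicate 2 and -0.24 in replicate 4. Every naked mole-rat heart lay below every other heart for 11 members (14.7%, against 11.0% of all genes tested).

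**Figure D2:**
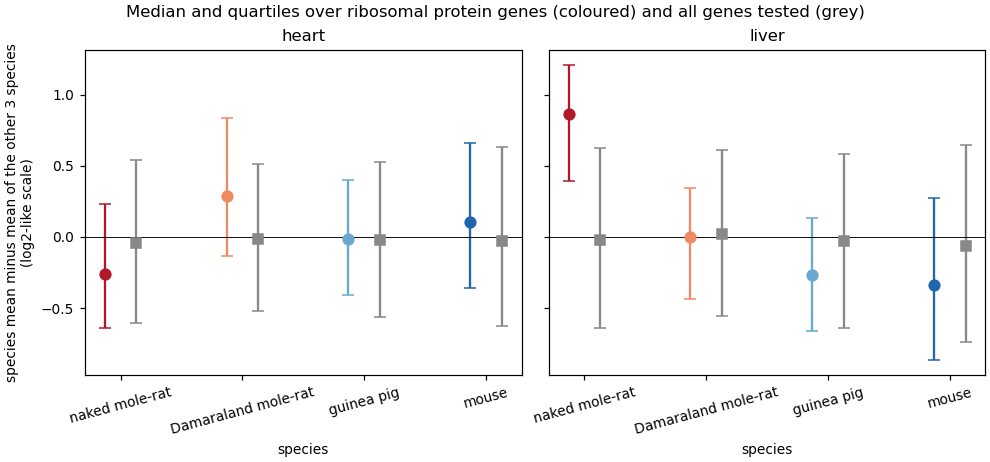
Difference between the mean of 1 species and the mean of the other 3 on the log2-like scale, as median and quartiles over the 75 members tested, Rps19bp1 included (coloured circles), and over all genes tested (grey squares), in heart and liver. The naked mole-rat in liver is the 1 case where the median of the members, at 0.86, lies above the upper quartile of all genes.

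**Figure D3:**
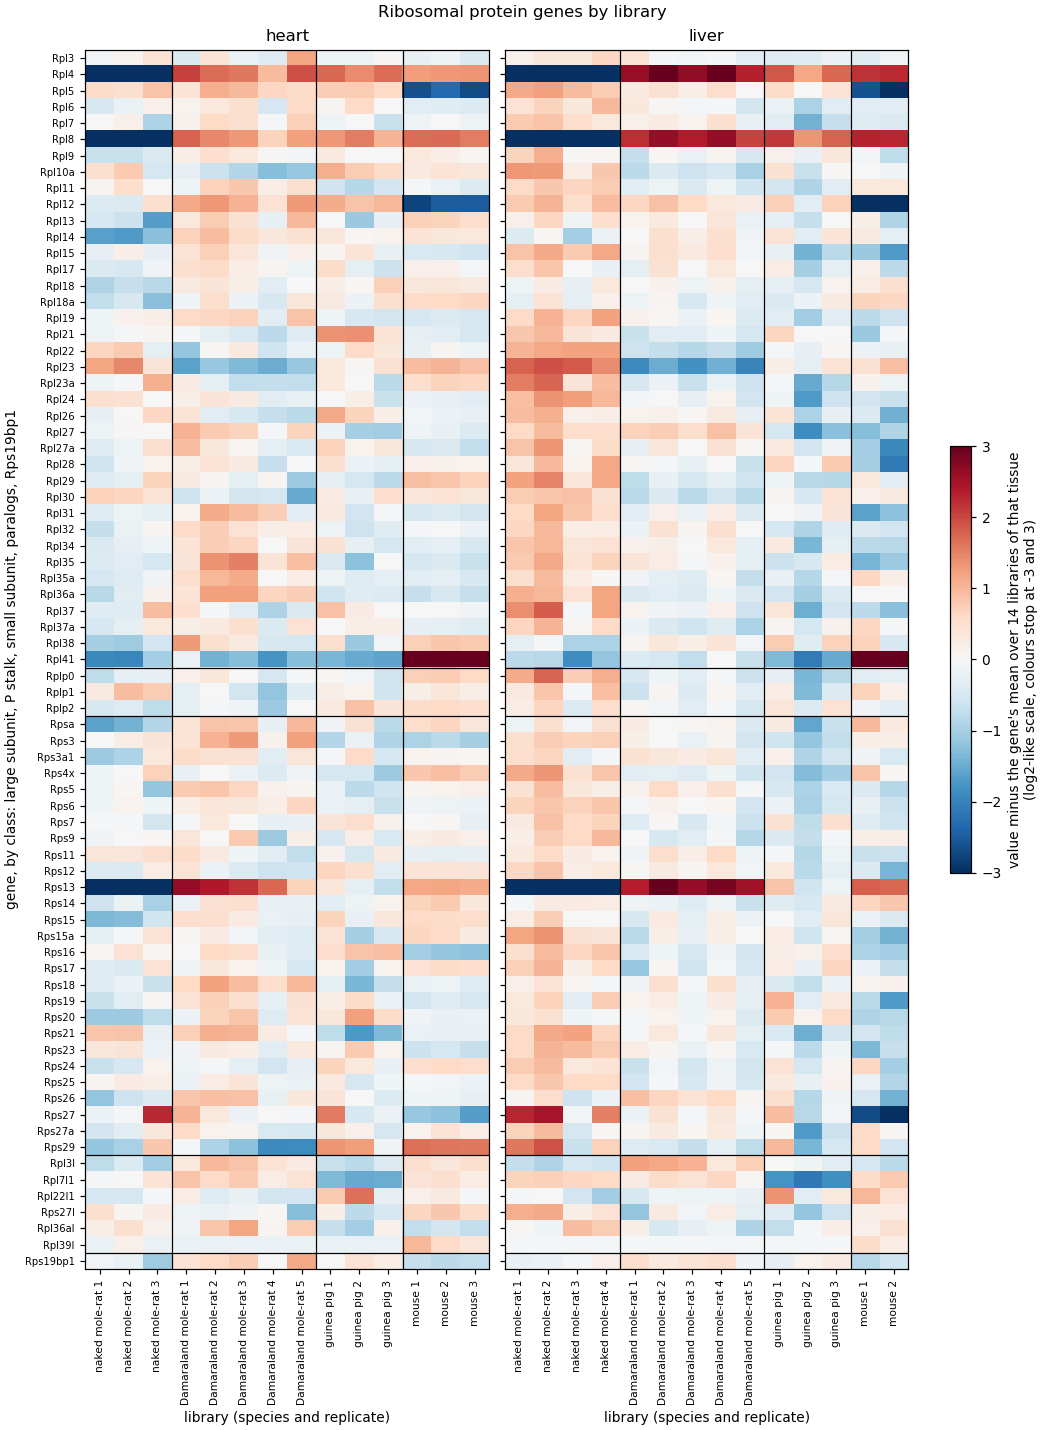
Deposited value of 75 of the 76 genes in each library minus the mean of that gene over the 14 libraries of the tissue (log2-like scale, red above and blue below), with genes ordered by class and libraries by species. The near-solid blue blocks at Rpl4, Rpl8 and Rps13 in the naked mole-rat and at Rpl5 and Rpl12 in the mouse, and the red blocks at Rpl41 in the mouse, stand against the broad light red of the naked mole-rat livers.

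Against the outgroups, few members set the mole-rats apart as a pair. A call needed an adjusted p under 0.05 and a difference of at least 1 on the log2-like scale. For the mean of the mole-rats minus the mean of the outgroups, 5 of 75 members were higher and 5 lower in heart, where 10.8% of all genes were called higher and 12.6% lower. In liver 16 members were higher and 4 lower, where 15.1% of all genes were called higher and 13.0% lower. Called in each mole-rat against each outgroup, with the same sign, were 0 members higher and 1 lower in heart (2.06% and 2.62% of all genes) and 2 higher and 0 lower in liver (3.42% and 2.87%). Without the size threshold those last counts were 2 higher and 3 lower in heart and 7 higher and 0 lower in liver, where 14.8% of all heart genes and 15.9% of all liver genes were called in either direction. Of 20 members called for the average in liver, 15 were called when members were held to at least 100 mean scaled reads in every species, all of them higher.

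In liver the pair higher in both mole-rats was Rpl15 and Rpl27, large subunit genes both known for mutations in Diamond-Blackfan anaemia, a red cell disorder of ribosomal protein shortage. Rpl27 had 2774, 3554, 2644 and 2641 scaled reads in the 4 naked mole-rats and 2973, 3081, 2641, 3412 and 2391 in the Damaraland mole-rats. The guinea pigs had 1281, 474 and 750.4 and the mice 733 and 953, so mole-rats and outgroups did not overlap. The average difference was 1.79 (SE 0.18, adjusted p = 1.24e-07). Rpl15 had 6093 to 7909.7 scaled reads in the naked mole-rat and 3309 to 4984 in the Damaraland mole-rat, against 1277 to 3004 in the guinea pig and 1052 to 1604 in the mouse. Its average difference was 1.73 (SE 0.18, adjusted p = 2.11e-07), but without guinea pig replicate 2 it was 1.58 and no longer called in every pair. In heart the 1 member lower in both mole-rats was Rps29, a zinc-binding small subunit protein, at 364, 419.6 and 1648 scaled reads in the naked mole-rat and 879, 435, 343, 185 and 192 in the Damaraland mole-rat, against 2367, 2269 and 830.1 in the guinea pig and 3008, 2907 and 2870.2 in the mouse. The highest mole-rat library was above the lowest guinea pig library, so the groups overlapped. Its average difference was -2.04 (SE 0.34, adjusted p = 6.16e-05). It was no longer called in every pair without any 1 of naked mole-rat replicates 1 and 2, Damaraland mole-rat replicate 3, guinea pig replicates 1 and 2 and the 3 mice (average -2.04 to -1.86), or with no filter on low values.

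The other members called for the average were not called in every pair of a mole-rat and an outgroup. In heart the higher ones were Rpl5 (1.61), Rpl12 (1.26), Rps21 (1.28), Rpl36al (1.02) and Rps3 (1.31), the last named after its values were seen. Of these, Rpl5 and Rpl12 were also called lower in the mouse alone, and Rps21 in the guinea pig alone. For Rpl12 the naked mole-rat hearts, at 1372 to 2689 scaled reads, lay below the guinea pig hearts, at 3516 to 4195. Rps3, a small subunit protein at the entry of the messenger RNA channel that also acts in DNA repair, had 6322 to 15349 scaled reads in the mole-rat hearts and 3099 to 5399.5 in the outgroup hearts, without overlap. The call of Rpl36al was lost without any 1 of naked mole-rat replicate 2, Damaraland mole-rat replicates 2, 3 and 5 and guinea pig replicates 1 and 2 (0.89 to 0.99). The lower members in heart beside Rps29 were Rpl4, Rpl8, Rps13 and Rpl41, and in liver Rpl4, Rpl8, Rps13 and Rpl41. Rpl4, Rpl8 and Rps13 were also called lower in the naked mole-rat alone, and Rpl41 higher in the mouse alone, in both tissues. Every Damaraland mole-rat liver was above every other liver for Rpl4, at 6049 to 9723 scaled reads against at most 5595. The same held for Rps13, at 1835 to 2891 against at most 1235. In liver 10 of the 16 higher members belonged to the large subunit, 5 to the small subunit and 1 to the paralogs. The largest differences were 2.48 for Rps27, 2.24 for Rpl12 and 2.12 for Rpl5. Rps27, Rpl12 and Rpl5 were each also called lower in the mouse alone. For each of them the guinea pig livers overlapped with the Damaraland mole-rat livers. Leaving out any 1 library gave 15 to 24 members called in liver, with 15 of them called without guinea pig replicate 2. Called in both tissues with the same sign were Rpl4, Rpl5, Rpl8, Rpl12, Rpl41, Rps13 and Rps21, and no member was called in opposite directions. Among these, Rpl4, Rpl8, Rps13 and Rpl41 had almost no reads in at least 1 species in both tissues. The same count was not made over all genes, so it has no share to stand against.

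Rpl4, Rpl8 and Rps13 were listed at or near 0 in the naked mole-rat in both tissues. Rpl4 lines the exit tunnel of the large subunit, Rpl8 lies close to the site where amino acids are joined, and Rps13 belongs to the small subunit. The recovered reads of Rpl4 were 0, 2 and 0 in the naked mole-rat hearts and 1, 1, 1 and 0 in the livers, against 4274 to 10750 and 3202 to 10572 in the other species. For Rpl8 they were 1, 1 and 0 in heart and 0 in all 4 livers, against 2179 to 7108 and 2477 to 6044. For Rps13 they were 0 in all 3 hearts and all 4 livers, against 444 to 5006 and 252 to 3143. All 3 were called lower against each other species in both tissues, with fitted differences between -7.13 and -5.08 in heart and between -7.86 and -5.72 in liver, whose size is set by the lowest value the table can hold. With so few reads in the naked mole-rat, no fold is given. How reads were assigned where a gene has near-identical copies, and how genes were matched between species, is not given in the sources used here, and the part of either in these values was not tested.

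Among genes with over 1000 mean scaled reads in some species, a level under 100 in another was found for 4 of 72 members in heart (5.56%) and 5 of 72 in liver (6.94%). The same held for 9.30% and 12.5% of all genes at that level. The members were Rpl4, Rpl8, Rps13 and Rpl41 in both tissues and Rps27 in liver.

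**Figure D4:**
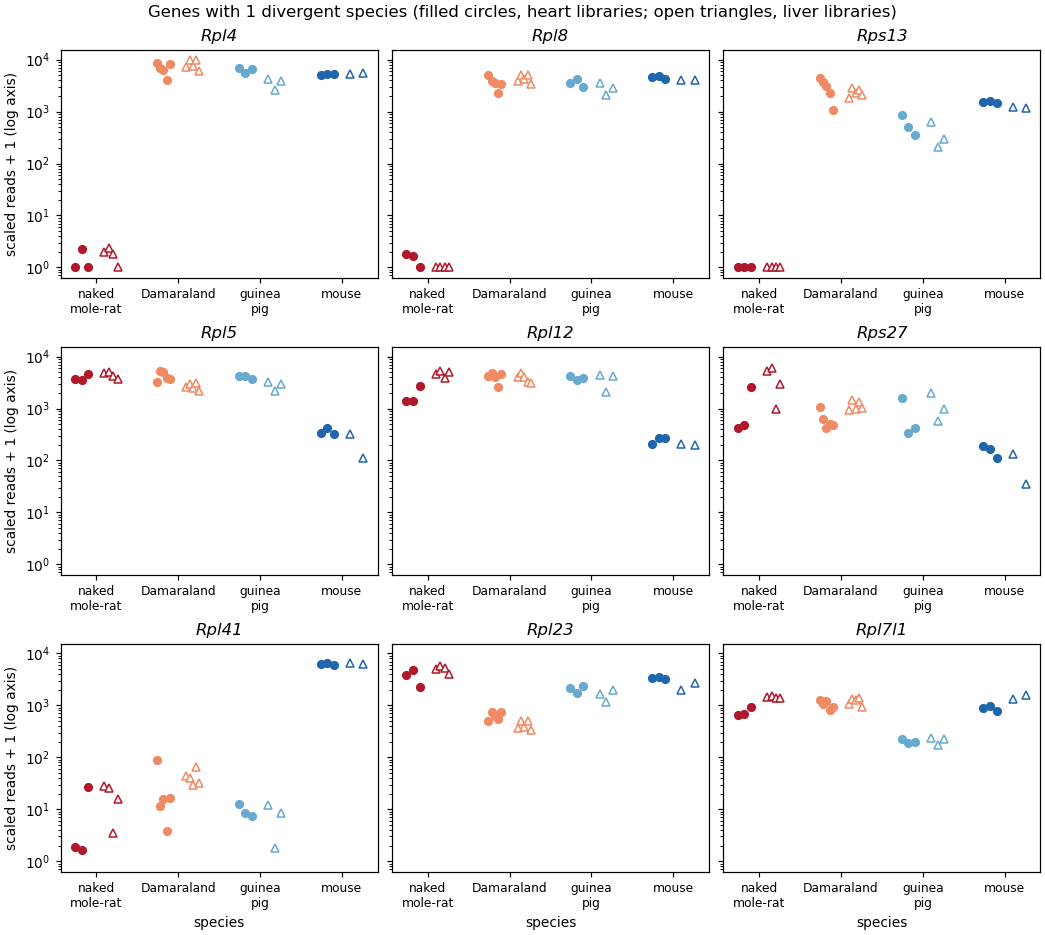
Scaled reads plus 1 on a log axis in every heart library (filled circles) and liver library (open triangles) of each species, for 9 genes with 1 species apart from the others. Rpl4, Rpl8 and Rps13 lie at the bottom of the axis in the naked mole-rat, Rpl5 and Rpl12 are low and Rpl41 high in the mouse, Rpl23 is low in the Damaraland mole-rat and Rpl7l1 low in the guinea pig.

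In naked mole-rat heart 6 members were called lower than in each other species and 0 higher, where 4.14% of all genes were called lower and 4.87% higher. Beside Rpl4, Rpl8 and Rps13 these were Rpl14, Rpsa and Rps15, of which Rpl14 and Rps15 were named after their values were seen. With members held to at least 100 mean scaled reads in every species, these last 3 were the ones that counted. Rpl14, of the large subunit, had 556, 525 and 737 scaled reads in the 3 naked mole-rats and 1947 to 3615 in the other 11 hearts, with a difference of -1.90 (SE 0.14, adjusted p = 8.77e-09). Rps15, of the small subunit head, had 760.2, 779.6 and 1322 against 1709 to 3309, a difference of -1.41 (SE 0.21). Rpsa, a small subunit protein that is also known as a laminin receptor, had 1537, 1780.4 and 2604 against 2732 to 9701, a difference of -1.61 (SE 0.26). All 3 naked mole-rat hearts were below all other hearts for each of these genes. The call of Rpsa was lost without naked mole-rat replicate 1 (-1.46) or guinea pig replicate 2 (-1.51). The naked mole-rat hearts are the ones in which the hepatocyte markers were high.

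In naked mole-rat liver 8 members were called higher than in each other species and 3 lower, where 5.83% of all genes were called higher and 4.45% lower. The 3 lower were Rpl4, Rpl8 and Rps13. The largest rise was that of Rps27, a small subunit protein with a zinc finger, which had 5224, 5947, 976 and 3022 scaled reads in the 4 naked mole-rats. The Damaraland mole-rats had 914 to 1448, the guinea pigs 571 to 2010 and the mice 132 and 34.8. Naked mole-rat replicate 3 lay inside the range of the Damaraland mole-rats, so the groups overlapped although the difference of 2.62 (SE 0.39, adjusted p = 1.59e-05) was called, and the call was lost without guinea pig replicate 2 (2.48).

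Rpl23, a large subunit protein known to bind the p53 regulator Mdm2, had 5042, 5655, 5291 and 3985 scaled reads in the naked mole-rat livers against 341 to 2749 in the others, and its difference was 2.05 (SE 0.16, adjusted p = 4.85e-09). Its call was lost without mouse replicate 1, where the difference was 1.98. Rpl24, which forms a bridge between the subunits, had 5609 to 7605 in the naked mole-rat and 898 to 3238 elsewhere, a difference of 1.66 (SE 0.21). Rplp0, the base of the P stalk, had 16669, 26117, 12766 and 16492 scaled reads against 2972 to 7489, a difference of 1.66 (SE 0.20). Rpl22, an RNA-binding large subunit protein, had 3008 to 3411 against 676 to 1479, a difference of 1.51 (SE 0.11). For these 4 genes every naked mole-rat liver was above every other liver. The remaining 3, named after their values were seen, were Rpl37 (1.65), Rpl23a (1.57) and Rpl29 (1.41). All 3 lost their call without naked mole-rat replicate 2 (1.41, 1.37 and 1.27), and Rpl23a and Rpl29 also without mouse replicate 2 (1.53 and 1.30). Without the size threshold 28 members were called in naked mole-rat liver, 25 higher and 3 lower, where 24.5% of all genes were called in either direction.

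In the Damaraland mole-rat 3 members were called higher and 2 lower than in each other species in heart (3.86% and 2.90% of all genes), and 1 higher and 1 lower in liver (5.51% and 3.30%). Rpl23 was lower in both tissues. In heart it had 505, 733, 632, 557 and 734 scaled reads in the 5 Damaraland mole-rats and 1755 to 4785 in the other species, a difference of -2.08 (SE 0.16, adjusted p = 6.92e-09). In liver it had 359.7, 493, 388, 510.3 and 341 against 1185 to 5655, a difference of -2.57 (SE 0.15, adjusted p = 1.26e-10). No Damaraland mole-rat library overlapped with another species in either tissue. The other member lower in heart was Rpl10a, of the L1 stalk that moves transfer RNA out of the ribosome. It had 659 to 1415 scaled reads against 1156 to 3746 elsewhere, where naked mole-rat replicate 3 overlapped, and a difference of -1.30 (SE 0.20). Its call was lost without naked mole-rat replicate 1 (-1.26) or 2 (-1.21), or without Damaraland mole-rat replicate 4 (-1.19).

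The members higher in Damaraland mole-rat heart were Rpl35, near the end of the exit tunnel, Rps18 of the small subunit head and Rpl36a of the large subunit. Rpl35 had 3487, 6852, 7682, 3473 and 5039 scaled reads in the 5 animals against 1086 to 2688 in the other hearts, a difference of 1.41 (SE 0.21). Rps18 had 4699 to 7643 against 1212 to 2899.7, a difference of 1.33 (SE 0.17). Rpl36a had 1256 to 2252 against 484 to 1019, a difference of 1.32 (SE 0.16), and lost its call without naked mole-rat replicate 1 (1.24). The Damaraland mole-rat hearts did not overlap with the other hearts for these 3 genes. Without naked mole-rat replicate 1 the count of members called in Damaraland mole-rat heart fell from 5 to 3. Damaraland mole-rat hearts also had the highest summed level of 4 smooth muscle markers, 9280 to 14470 scaled reads against 1719 to 5783, with Cnn1 and Acta2 called higher there alone. Their 8 cardiomyocyte markers summed to 1541156 to 2160258 scaled reads against 781158 to 1267920 in the other hearts, with 0 of 8 called. The part of either in these genes was not tested.

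In the guinea pig 1 member was called higher and 2 lower in heart (3.99% and 2.62% of all genes), and 0 higher and 1 lower in liver (5.10% and 4.28%). Rpl7l1, a paralog of Rpl7 with a part in assembling the large subunit, was the gene lower in both tissues. In heart it had 226, 189 and 194 scaled reads in the 3 guinea pigs against 657 to 1295 in the other species, a difference of -1.79 (SE 0.15, adjusted p = 3.53e-08). In liver it had 236, 175 and 228 against 924 to 1600.4, a difference of -2.49 (SE 0.14, adjusted p = 1.15e-10). Guinea pig libraries did not overlap with those of other species. Rps21, of the small subunit, had 808, 382 and 529 scaled reads in guinea pig heart against 1215 to 3108, a difference of -1.56 (SE 0.26). Its call was lost without guinea pig replicate 2 (-1.34) and under quantile normalisation (-1.56), which left 1 member higher and 1 lower. Rpl21, of the large subunit, had 5338, 5452 and 2742 against 1153 to 2163, a difference of 1.31 (SE 0.19), and its call was lost without guinea pig replicate 1 (1.16) or 2 (1.14). Without replicate 2 the count in guinea pig heart fell from 3 to 1. In liver it rose from 1 to 3 without guinea pig replicate 1. The guinea pig hearts were also those with the highest summed level of 7 leukocyte markers, 5973 to 9098 scaled reads against 297 to 3029 in the other hearts. Of the 5 leukocyte markers tested in heart, only Cd74 was called higher in the guinea pig alone. Their median difference from the other species was 0.15 in the guinea pig and 0.86 in the mouse. The 6 fibroblast markers also summed highest in guinea pig heart, at 45250 to 119034 against 8147 to 44078. Of these, Col3a1, Col1a2 and Lum were called higher in the guinea pig alone. The leukocyte markers were highest in guinea pig liver too, at 4703 to 6904 against 1283 to 2747. There Cd79a, Cd74 and Cd3e of 7 tested were called higher in the guinea pig alone. The part of these cells was not tested.

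In the mouse 1 member was called higher and 4 lower in heart (6.60% and 3.80% of all genes), and 1 higher and 8 lower in liver (6.33% and 5.83%). Rpl41, which encodes a very short basic peptide, was the gene higher in both. Its recovered reads were 9352, 8332 and 7348 in the mouse hearts and 5474 and 8565 in the mouse livers. In the other species they were 1 to 99 in heart and 1 to 62 in liver, with 99, 12, 23, 3 and 10 in the Damaraland mole-rat hearts. The fitted differences were 6.55 (SE 0.25) in heart and 7.05 (SE 0.26) in liver. With so few reads outside the mouse, their size depends on the lowest value the table can hold, and the part of read assignment and of gene matching between species was not tested for Rpl41 either.

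Rpl5, Rpl12 and Rps27 were lower in the mouse in both tissues. Rpl5, which with Rpl11 carries the smallest ribosomal RNA of the large subunit into the ribosome and can bind Mdm2, had 333, 426 and 317 scaled reads in the mouse hearts and 3281 to 5355 in the other hearts, a difference of -3.24 (SE 0.16, adjusted p = 3.42e-11). In liver it had 319.7 and 112 against 2125 to 5086, a difference of -3.80 (SE 0.24, adjusted p = 9.00e-10). Its partner Rpl11 had 2427 to 3076 scaled reads in mouse heart and 4304 to 4372 in mouse liver, both inside the range of the other species (1759 to 5770 and 1829 to 6139). Rpl12, at the base of the P stalk, had 210.4, 271 and 274 scaled reads in the mouse hearts against 1372 to 4777, a difference of -3.23 (SE 0.20, adjusted p = 7.56e-10). In liver it had 203 and 196 against 2095 to 5368, a difference of -4.07 (SE 0.23, adjusted p = 2.06e-10). For Rpl5 and Rpl12 the mouse libraries were below all others in both tissues. The part of read assignment and of gene matching between species was not tested for Rpl5, Rpl12 and Rps27 either.

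Rps27 had 186, 168 and 108 scaled reads in the mouse hearts and 132 and 34.8 in the mouse livers. The naked mole-rat hearts had 429.6, 470.2 and 2645, the Damaraland mole-rat hearts 1085, 630, 427, 502 and 469.8 and the guinea pig hearts 1601, 330.5 and 429, with 1 library of each well above the rest of its species. The high naked mole-rat heart was replicate 3, the library with the fewest reads. The mouse difference was -1.74 (SE 0.45, adjusted p = 0.00257) in heart and -3.88 (SE 0.50, adjusted p = 3.71e-06) in liver, and in heart its call was lost without guinea pig replicate 1 (-1.53) or mouse replicate 3 (-1.58). Rps16, of the small subunit, was the other member lower in mouse heart, at 1589, 1435 and 1361 scaled reads against 2576 to 6223 (-1.49), and was named after its values were seen. The other 5 members lower in mouse liver, also named after their values were seen, were Rpl28 (-1.86), Rpl27a (-1.70), Rpl31 (-1.68), Rps19 (-1.49) and Rps15a (-1.41). Only 2 mice gave liver. Without mouse replicate 2, Rpl28 (-1.30), Rpl27a (-1.24), Rps19 (-1.05) and Rps15a (-1.19) lost their calls, and Rps15a also did so without Damaraland mole-rat replicate 2 or 4 or guinea pig replicate 1 (-1.39 to -1.35).

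All 3 P stalk genes had means above those of the other species together in naked mole-rat liver and mouse heart, and 0 of 3 did in Damaraland mole-rat heart and liver. Rplp0, described above for naked mole-rat liver, was the 1 of them with a call. Its heart level was highest in the mouse, at 11384, 11739.7 and 10493 scaled reads against 4031 to 8807 in the other hearts, without overlap and without a call against each species. Rplp1 had 4774 to 7526 scaled reads in naked mole-rat heart, 1689 to 3928 in the Damaraland mole-rat, 2594 to 4474 in the guinea pig and 4453 to 5129.6 in the mouse. Rplp2 had 1179.9 to 2566 scaled reads in the mole-rat hearts and 3194 to 4814 in the outgroup hearts, without overlap. In liver Rplp2 was among the members with the smallest spread of species means, which ranged from 10.88 ± 0.17 in the mouse to 11.35 ± 0.47 in the naked mole-rat on the log2-like scale.

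Of the paralogs, Rpl3l differed most between the tissues. Its reads were read against those of Rpl3, whose place it takes in muscle ribosomes, as the share of Rpl3l in the reads of the pair. In heart that share was 41.4% ± 8.8 (SD, n = 3) in the naked mole-rat, 64.3% ± 13.4 (n = 5) in the Damaraland mole-rat, 47.5% ± 1.8 (n = 3) in the guinea pig and 68.7% ± 3.3 (n = 3) in the mouse. The naked mole-rat hearts ranged from 31.4% to 47.9%, below every mouse heart (65.3% to 71.9%), while the Damaraland mole-rat hearts ranged from 40.8% to 73.8%. In liver the share was 0.0565% ± 0.029 (n = 4), 1.09% ± 0.34 (n = 5), 0.318% ± 0.11 (n = 3) and 0.0988% ± 0.074 (n = 2) in the same order. Rpl3l had 1716, 2214 and 1393 scaled reads in the naked mole-rat hearts and 3732, 5903, 5437, 3996 and 3521 in the Damaraland mole-rat hearts, with 1658 to 2208 in the guinea pig and 3804 to 4142 in the mouse. In liver it was called higher in the Damaraland mole-rat, at 75.7, 70.8, 63, 26.3 and 43.5 scaled reads against 1.38 to 16.1 in the others, a difference of 1.39 (SE 0.16, adjusted p = 7.21e-07). This call rests on few reads and was lost without Damaraland mole-rat replicate 1 (1.30) or 2 (1.32), without guinea pig replicate 3 (1.36) and under quantile normalisation (1.21). The cardiomyocyte markers, some of whose cells could carry Rpl3l into a liver sample, summed to 1932 to 3880 scaled reads in Damaraland mole-rat liver and to 582 to 3374 in the other livers, and their part was not tested.

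**Figure D5:**
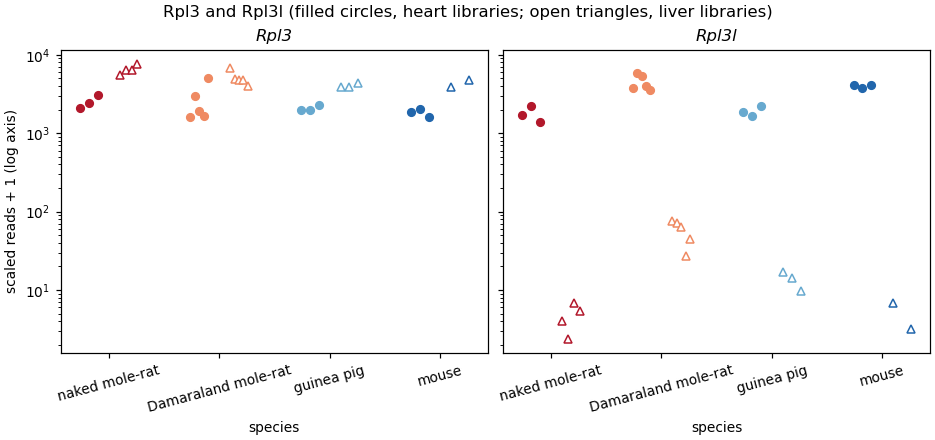
Scaled reads plus 1 on a log axis for Rpl3 (left) and its muscle paralog Rpl3l (right) in every heart library (filled circles) and liver library (open triangles) of each species. Rpl3 lies between 1619 and 7712 in all libraries, while Rpl3l lies between 1393 and 5903 in heart and between 1.38 and 75.7 in liver.

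Rps27l, the paralog of Rps27, made up 78.9% ± 3.7 (SD, n = 3) of the reads of the pair in mouse heart and 94.5% ± 4.4 (n = 2) in mouse liver. In the other species its mean share lay between 28.4% and 36.4% in heart and between 39.8% and 48.5% in liver. The reads of Rps27l itself were 516 to 633 scaled reads in mouse heart and 96.8 to 486 in the other hearts, and 1394 to 1426 and 520.1 to 2748 in liver, while Rps27 was low in the mouse. Rpl22l1 made up 7.88% ± 2.9 (n = 4) of the pair with Rpl22 in naked mole-rat liver, where Rpl22 was high, and 27.5% to 33.2% on average in the other livers. In heart its mean share was 10.7% to 24.3%. Rpl36al, a copy of Rpl36a, had 956 to 3496 scaled reads in the mole-rat livers and 1091 to 2552 in the outgroup livers, which overlapped. Rpl39l, which is known from testis, had 45, 16 and 8 reads in the mouse hearts and 3 and 1 in the mouse livers, 4 in 1 naked mole-rat heart and 0 in every other library. Paralogs of such likeness can share reads, and their split between copies is as the authors' quantification made it.

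Other members known beyond the ribosome stayed below the call in every species. Rps6, the target of S6 kinase downstream of mTOR, had 5932 to 6623 scaled reads in naked mole-rat liver against 1851 to 4032 in the other livers, without overlap, and 3989 to 4684 in heart, inside the range of the others. Rps27a, made as a fusion with ubiquitin, had 1225 to 2359.6, 1309.6 to 2783, 1276 to 2345 and 1994 to 2542 scaled reads in naked mole-rat, Damaraland mole-rat, guinea pig and mouse heart, which overlapped. Rps4x, an X-linked small subunit gene, had 4324 to 4780.2 scaled reads in mouse heart and 1152 to 4123 in the other hearts, without overlap. Rps19bp1, the binding partner of Rps19, had 84.8 to 95.6 scaled reads in mouse heart and 140.4 to 172 in mouse liver, against 59.3 to 524 and 229 to 415 in the other species, which overlapped in heart and not in liver.

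The 4 species means of a member lay a median of 1.10 apart in heart and 1.42 in liver, against 1.41 and 1.58 for all genes tested. In heart 41.3% of members had all species means within 1 of each other, against 28.0% of all genes, and in liver 22.7%, against 23.5%. Rps25, Rpl28 and Rpl3 had the smallest spread in heart. Rps25, a small subunit protein, had 11.49 ± 0.09 in the naked mole-rat, 11.33 ± 0.27 in the Damaraland mole-rat, 11.20 ± 0.40 in the guinea pig and 11.22 ± 0.06 in the mouse on the log2-like scale. Its species means lay 0.29 apart, less than the SD of the guinea pig hearts. In liver Rplp2 and Rps15 were among the members with the smallest spread. Rps15 was thus called lower in naked mole-rat heart while its means were among the closest in liver.

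The 17 genes with known mutations in Diamond-Blackfan anaemia that were tested held 1 gene higher and 1 lower for the average in heart (Rpl5 and Rps29). In liver they held 6 higher and 0 lower: Rpl5, Rpl15, Rpl27, Rpl35, Rps15a and Rps27. Of all genes 10.8% were called higher and 12.6% lower in heart, and 15.1% and 13.0% in liver. The median difference of the 17 was 0.17 in heart and 0.79 in liver, against -0.01 and 0.02 for all genes. All 17 are among the 75 members tested, whose medians were -0.05 and 0.51. Of those members 21.3% were called higher in liver. Rpl5, Rps15a and Rps27 were also called lower in mouse liver alone. Rps15a lost its call without any 1 of naked mole-rat replicates 1 and 2, Damaraland mole-rat replicates 2 and 4, guinea pig replicate 2 and mouse replicate 2 (0.89 to 0.98) and under quantile normalisation (0.98). Rps19, the gene most often mutated in that disorder, had 1537 to 2537 scaled reads in naked mole-rat heart, 2089 to 4139.8 in the Damaraland mole-rat, 2143 to 3703 in the guinea pig and 1663 to 1904 in the mouse. Fau, a ubiquitin-like fusion that carries a small subunit protein and lies outside the symbol rule, was called higher in naked mole-rat liver alone, with a difference of 1.54.

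The wider machinery that makes and uses ribosomes was looked at in lists chosen from textbook roles, whose counts stand against the same shares of all genes: 10.8% higher and 12.6% lower in heart, and 15.1% and 13.0% in liver. Of 38 ribosome biogenesis genes tested in heart, 8 were higher in the average of the mole-rats and 1 lower, with a median of 0.47. Of 39 in liver, 1 was higher and 3 lower, while their median was 0.33. In both tissues Nop2, a methyltransferase of the large ribosomal RNA, was the lowest, at -1.72 (SE 0.13, adjusted p = 8.70e-09) in heart and -2.39 (SE 0.15, adjusted p = 2.88e-10) in liver. The highest was Nop14 in heart (1.58) and Efl1, a factor that frees new large subunits, in liver (1.04), whose call was lost without naked mole-rat replicate 3 or guinea pig replicate 1 or 3 (0.97 to 0.98). RNA polymerase I genes held 2 higher and 2 lower of 13 in each tissue, with Taf1c higher (1.35 in heart and 1.76 in liver) and Ubtf lower (-1.30 and -1.59). Ubtf, a factor that opens ribosomal RNA genes for transcription, was called lower in the Damaraland mole-rat against each other species in both tissues. It had 9.80 ± 0.12 in naked mole-rat heart and 8.13 ± 0.24 in Damaraland mole-rat heart, against 10.27 ± 0.21 in the guinea pig and 10.26 ± 0.05 in the mouse. In liver Taf1c was called higher in the Damaraland mole-rat alone, at 8.19 ± 0.35 against 6.96 ± 0.14 in the naked mole-rat. Among 12 regulators of ribosomal protein translation, 1 was higher and 2 lower in heart and 1 higher and 3 lower in liver. The higher was Mlst8, a subunit of the mTOR complexes (1.53 and 1.19), and the lowest Eif4ebp1, the cap-binding repressor that mTOR inactivates (-2.22 and -1.59). Mlst8 had 10.63 ± 0.22 in Damaraland mole-rat heart and 8.31 ± 0.27 in naked mole-rat heart, against 7.93 ± 0.26 in the guinea pig and 7.94 ± 0.04 in the mouse. Initiation factor genes held 0 higher and 1 lower of 15 in heart and 1 higher and 0 lower in liver, and 17 elongation factor and related genes 1 higher and 2 lower in heart and 2 higher and 0 lower in liver.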

How the data were processed

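The authors deposited 1 table per tissue of log2-like values from a variance-stabilising transform. Each has 13928 rows named by mouse identifiers, and 13921 of them matched a symbol. Per the submitters' processing notes, cutadapt, Salmon (version 013.1) and DESeq2 were used and GRCm38 is named as a build. The handling of multi-mapped reads and the assignment of genes across species are not given in the sources used here. The value that stands for 0 reads is 5.3645 (heart) or 4.2893 (liver). Inverting the transform gave whole reads (largest deviation 6.4e-08 in heart and 5.9e-08 in liver), used for depth, shares and scaled reads. The tables hold 26 further columns that match no sample of this series and were not used.

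Each tissue was fitted with limma 3.58.1 (R 4.3.3), using the log2-like values as deposited, with a coefficient per species, a variance trend and Benjamini-Hochberg adjustment over all genes tested. A gene entered where its mean lay at least 1 above the lowest value, as for 10667 heart and 10887 liver genes. A member was called for a species where it was called against each of the other 3 with the same sign. The script was tested on simulated data. Members, lists and naming rules were chosen with earlier results of these data known. Named were the members called in both mole-rats, the 3 highest and 3 lowest called per species, members near 0 in 1 species, the 3 with the smallest spread and a list of paralogs and members with known roles. From the other lists the highest and lowest called gene was named. The values of 1 member that the rule names are not reported here. Alternatives covered the size threshold, the filter, centring, quantile normalisation, a replicate block, voom on recovered reads and leaving out each library, and a limit of 100 mean scaled reads in every species, which for the counts of calls was chosen after seeing the data. Spread between animals limits precision, and PCR reads are no independent molecules.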

Additional observations from a re-analysis of the deposited data

Results flagged for a closer look

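Of 118 groups of 4 or 5 libraries of a named gene, or of the share of reads, 8 held a library far from the others of its species, where chance gives about 1 in 20. In heart Damaraland mole-rat replicate 4 was low for 3 of them on the log2-like scale: Rpl12 at 11.38 (others 12.00 to 12.25), Rplp2 at 10.30 (others 11.11 to 11.37) and Rps19 at 11.08 (others 11.77 to 12.04). The same library had the lowest median over all members of its species, at -0.24. Damaraland mole-rat heart replicate 5 was low for Rps27l, at 7.40 (others 8.47 to 8.73).

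In liver naked mole-rat replicate 2 was high for Rpl27, at 11.81 (others 11.39 to 11.46), and for Rps25, at 12.01 (others 11.80). Among the Damaraland mole-rat livers, replicate 1 was low for Rpl22l1, at 8.18 (others 8.45 to 8.53), and replicate 5 for Rps6, at 11.29 (others 11.82 to 11.99). No member had all libraries of a species above the others in 1 tissue and below them in the other.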

How the results depend on the processing

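Of 85 called differences of single genes, 27 lost a call under at least 1 of the alternatives run and 0 changed direction. Without the size threshold the heart counts of members called were 37 for the average, 5 for both mole-rats, 10 for the naked mole-rat, 12 for the Damaraland mole-rat, 5 for the guinea pig and 10 for the mouse, and the liver counts 51, 7, 28, 6, 4 and 16 in the same order. Of all genes 67.3% in heart and 68.0% in liver were then called for the average, against 49.3% and 68.0% of the 75 members. For both mole-rats 14.8% and 15.9% of all genes were called, against 6.67% and 9.33% of members. For 1 species alone 19.2% to 26.2% of all genes were called over both tissues, against 5.33% to 37.3% of members, with the highest share in naked mole-rat liver. With members held to at least 100 mean scaled reads in every species, the heart counts were 6 for the average and 3 for the naked mole-rat, and the liver counts 7 for the naked mole-rat and 1 for the Damaraland mole-rat. Without the filter on low values the heart count for both mole-rats was 0. With the replicate number as a block that count was also 0, as Rps29 (-1.80) was lost, and Rpl10a (-1.06) was lost in Damaraland mole-rat heart; the other counts stayed within 1.5 times. Deviations from the species mean in same-numbered libraries of different species correlated at -0.261 to 0.301 in heart (median -0.0175) and -0.232 to 0.15 in liver (median 0.0265). For libraries with different numbers the correlations were -0.229 to 0.231 (median -0.0095) and -0.283 to 0.326 (median -0.00227). Weak correlations over so few pairs cannot decide whether the numbers stand for a shared batch.

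Leaving out 1 library gave 0 to 1 members for both mole-rats in heart, 3 to 6 for the Damaraland mole-rat and 1 to 4 for the guinea pig, and in liver 1 to 2 for both mole-rats, 1 to 2 for the Damaraland mole-rat and 1 to 3 for the guinea pig. The counts for naked mole-rat liver and mouse liver also varied, with the lost calls given above. Their ranges include fits with 1 mouse liver. A mouse liver left alone was assumed to vary like the other groups. The share of reads without mitochondrially encoded genes was 1.46% in naked mole-rat heart, 1.705% in guinea pig heart and 1.46% in mouse heart. Without the 20 genes with most reads it was 1.75%, 2.30%, 2.01% and 1.83% in heart and 2.67%, 1.91%, 1.655% and 1.655% in liver, in the order naked mole-rat, Damaraland mole-rat, guinea pig and mouse. The cause of these changes was not tested.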
